A study of Macaca mulatta with 2 samples.

Results

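The genes described here are the rapid and delayed activity-regulated genes of the prefrontal cortex, taken by name from the count table of the series. The list held 40 names, of which 29 were rapid transcription factors and regulators (FOS to SRF) and 11 were delayed effectors (NPTX2 to PIM1). Of these names, 39 were found among the 33618 genes counted, 28 rapid and 11 delayed, and NR4A1 was not analysed here. The study compared infant rhesus macaques exposed repeatedly to sevoflurane, an inhaled anesthetic, with control animals. The libraries analysed here came from the prefrontal cortex of 1 control animal and 1 sevoflurane animal, both labelled as 28 days old. The study describes more animals in each group, all female among the controls and of both sexes in the anesthesia group. Those further animals were not analysed here. By the labels, sevoflurane was given at 2.5 to 3% for 4 h on postnatal days 7, 14 and 28, while the methods of the study list later days for the repeat exposures. The methods place the harvest directly after the third exposure, with anesthetized animals intubated and on oxygen, and do not state how the control macaques were handled before harvest. No genotype or strain beyond the species was given.

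Activity-regulated genes are switched on in neurons when calcium enters through synaptic receptors and channels. Kinases then phosphorylate factors that already sit at the promoters, mainly CREB and the ELK proteins bound with SRF, so the rapid genes need no new protein to start. Most rapid genes encode transcription factors with short-lived mRNAs, and several also respond to stress, growth factors or cytokines in glia and vessels. The delayed effectors follow and act at synapses, in secretion or in signaling. Transcripts of these genes are therefore commonly read as a record of the recent activity of a tissue.

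Depth came to 16960880 gene reads for the control and 9839105 for sevoflurane. Counts were scaled by the TMM method of edgeR and given as CPM, reads scaled to a common library size, which are not per length and are compared here between the libraries only, never between genes. The log2 ratio of sevoflurane over control used a prior count of 2 and was computed for the 18050 genes that reached 1 CPM in at least 1 of the libraries. Its 95% interval was derived from an exact Clopper-Pearson interval on the fraction of a gene's reads that came from sevoflurane, and covers counting error only. A gene was called lower or higher when it differed at least 2-fold and its interval left out equal expression. With 1 animal a group there was no replicate check and no test, so every difference below lies between these 2 libraries and cannot be assigned to the exposure. The animals also differed in Y-linked reads, with 3 on the 9 listed genes for the control and 4542 for sevoflurane, and sex and exposure cannot be told apart. Neuron markers matched the tissue label in both libraries, with 21120 and 12658 reads on SNAP25 and 16767 and 9073 on SLC17A7.

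Among the activity-regulated genes, the transcription factor genes NPAS4, NR4A3, EGR2, FOS, FOSB and EGR4 and the delayed gene PTGS2 fell most, each more than 4-fold. None of the JUN, IER and BTG genes was called lower, as was true of most genes tested. IER3, BTG2, GADD45B, ZFP36 and PIM1 were called higher. Of the 39 members, 38 passed the filter, 37 of them in both libraries and IER3 only through the sevoflurane library. ATF3 did not pass. Of those that passed, 10 were called lower (26.3%) and 5 higher (13.2%). Among all genes tested, 5.47% were called lower and 7.56% higher. The share called lower was thus above the background and the share called higher was closer to it. The members were chosen with earlier results of these data known, so their shares, also by class, are not independent of the data. Of the 10, 7 fell at least 4-fold, as did 1.22% of all genes tested, and 0 of the members were higher at least 4-fold. By the interval alone, 18 members lay below equal expression (28.1% of all genes did) and 10 above it (28.4%). In bulk tissue, fewer cells of a type and less RNA per cell cannot be told apart.

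**Figure D1:**
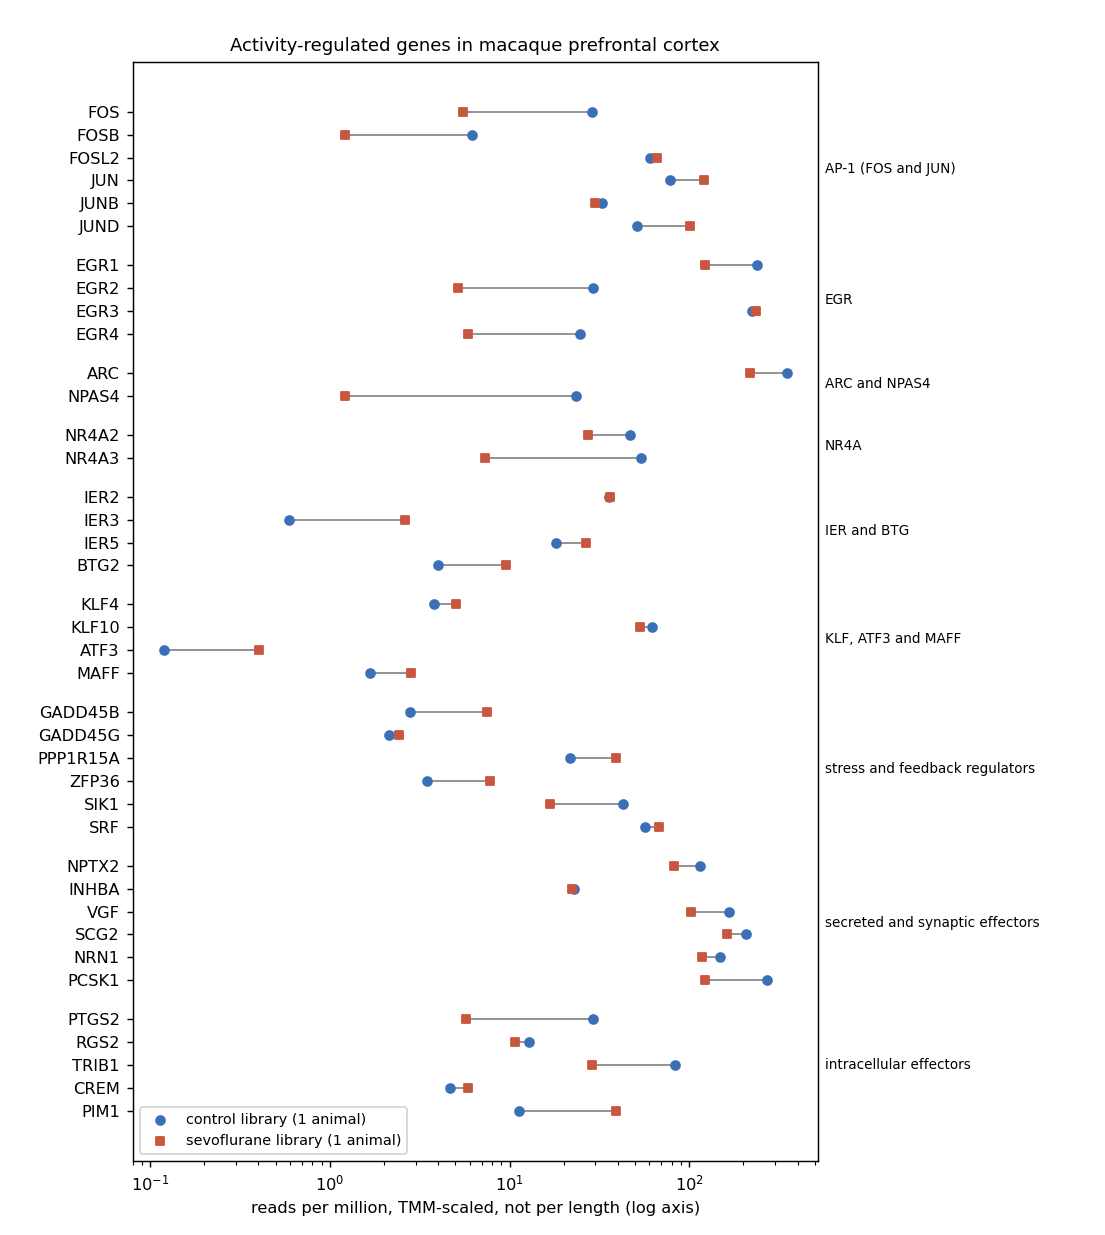
Level of each of the 39 listed members in the control library (blue circles) and the sevoflurane library (red squares), in TMM-scaled CPM on a log axis and not per length, grouped by family. A long line marks a large difference, as for NPAS4 at 23.4 and 1.21 CPM, and overlapping symbols mark equal levels, as for IER2 at 35.9 and 36.3 CPM.

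FOS and FOSB, which encode the FOS subunits of the AP-1 transcription factor, fell together. FOS had 481 control and 55 sevoflurane reads, and its level was 19.3% of the control. Its log2 ratio was -2.34 (95% interval -2.80 to -1.97). FOSB had 104 and 12 reads and stood at 19.5% of the control (log2 ratio -2.22, interval -3.35 to -1.49). The third FOS gene, FOSL2, had 1010 and 657 reads, with an interval of -0.005 to 0.28 that held equal expression. The AP-1 family was therefore split within its FOS arm.

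The JUN genes encode the partners with which FOS proteins bind DNA. None of them was called lower, beside 5.47% of all genes tested. JUN had 1316 and 1199 reads (log2 ratio 0.62, interval 0.51 to 0.74), and JUNB had 547 and 298, with a ratio of -0.12 and an interval of -0.33 to 0.09. With the neuron markers set to 0 the JUNB ratio was 0.15. JUND, the JUN gene with the steadiest expression in most tissues, had 859 and 1006 reads. It stood at 198% of the control (log2 ratio 0.98, interval 0.85 to 1.12), just short of the 2-fold threshold. With library totals in place of TMM it was past it, so that 6 members instead of 5 were called higher.

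The EGR genes encode zinc finger transcription factors that bind GC-rich promoters. EGR2, at 492 control and 51 sevoflurane reads, fell to 17.5% of the control (log2 ratio -2.48, interval -2.96 to -2.09). EGR4, at 415 and 58 reads, fell to 23.6% (log2 ratio -2.05, interval -2.50 to -1.68). EGR1 lay just short of the threshold. It had 4007 and 1210 reads, which put it at 51.1% of the control with a ratio of -0.97 and an interval of -1.06 to -0.88. EGR3 had 3731 and 2319 reads and a ratio of 0.07, and its interval of -0.003 to 0.15 held equal expression. The family thus ran from EGR3, not told from equal expression, to a deep decrease in EGR2.

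NPAS4 and ARC are induced almost solely in neurons. NPAS4 encodes a bHLH-PAS transcription factor that answers calcium entry and shapes inhibitory synapses, and it had the lowest ratio of all members. It went from 394 reads to 12, or 5.15% of the control, with a log2 ratio of -4.12 and an interval of -5.24 to -3.46. Only 0.0609% of the genes tested had a ratio as low. ARC encodes a synaptic protein that promotes the removal of AMPA receptors. It kept 62.6% of its control level, at 5840 and 2160 reads (log2 ratio -0.68, interval -0.75 to -0.60), so it lay below equal expression without being called.

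The NR4A genes encode orphan nuclear receptors that need no ligand and are regulated mainly by their own transcription. NR4A3 had 902 control and 72 sevoflurane reads and fell to 13.5% of the control (log2 ratio -2.86, interval -3.26 to -2.54). NR4A2, which is also a lineage factor of dopamine neurons and marks deep cortical cells, had 781 and 272 reads. Its ratio of -0.76 (interval -0.97 to -0.56) was below equal expression and above the threshold.

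In the IER and BTG group, 0 of 4 genes were called lower and 2 higher, beside 5.47% and 7.56% of all genes tested. A group of this size is too small to set against those shares. IER2 encodes a small nuclear regulator and had 603 and 360 reads, a log2 ratio of 0.01 with an interval of -0.18 to 0.21. IER5, a relative that acts in the heat shock response, had 303 and 263 reads (0.55, interval 0.31 to 0.80). BTG2, an antiproliferative gene that recruits the mRNA deadenylation machinery, rose from 67 to 95 reads, which is 240% of the control after scaling (log2 ratio 1.23, interval 0.80 to 1.74). IER3, a stress-induced survival factor, had 10 and 26 reads and a log2 ratio of 1.89, with an interval of 1.04 to 3.35. With 10 control reads, its size is known only within that wide interval.

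The KLF, ATF3 and MAFF group held no called gene among the 3 that passed the filter. Among all genes tested, 5.47% were called lower and 7.56% higher. KLF4, a zinc finger factor of endothelium and many other cells, had 64 and 50 reads and an interval of -0.16 to 0.96. KLF10, a target of TGF-beta signaling, had 1042 and 530 reads and a log2 ratio of -0.22 (interval -0.37 to -0.06). Its ratio turned to 0.050 when the neuron markers were used as the reference. MAFF, a small MAF protein that lacks an activation domain, had 28 reads in each library and an interval of -0.05 to 1.57. ATF3, a bZIP factor induced by injury and stress, had 2 control reads and 4 sevoflurane reads, so its interval ran from -1.04 to 5.23 and no difference was detectable at this depth.

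Of the 6 stress and feedback regulators, 2 were called higher and 1, SIK1, was called lower, beside 7.56% and 5.47% of all genes tested. GADD45B, a growth arrest gene linked to DNA demethylation in neurons, rose from 47 to 74 reads (log2 ratio 1.37, interval 0.87 to 1.97). ZFP36 encodes tristetraprolin, which triggers the decay of AU-rich mRNAs such as those of the rapid genes themselves. It rose from 58 to 77 reads (log2 ratio 1.13, interval 0.66 to 1.68). PPP1R15A directs a phosphatase to the translation factor that the integrated stress response blocks, and it had 362 and 390 reads (0.86, interval 0.66 to 1.08), under the threshold, which it passed (1.13) when the neuron markers were set to 0. GADD45G had 36 and 24 reads and an interval of -0.64 to 0.96. SRF, which sits upstream of FOS and EGR1 at their promoters, had 956 and 675 reads and a ratio of 0.26 (interval 0.11 to 0.40). SIK1, a kinase that is induced through CREB and restrains the CRTC coactivators of CREB, fell from 718 to 166 reads, or to 39.1% of the control (log2 ratio -1.35, interval -1.61 to -1.11).

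**Figure D2:**
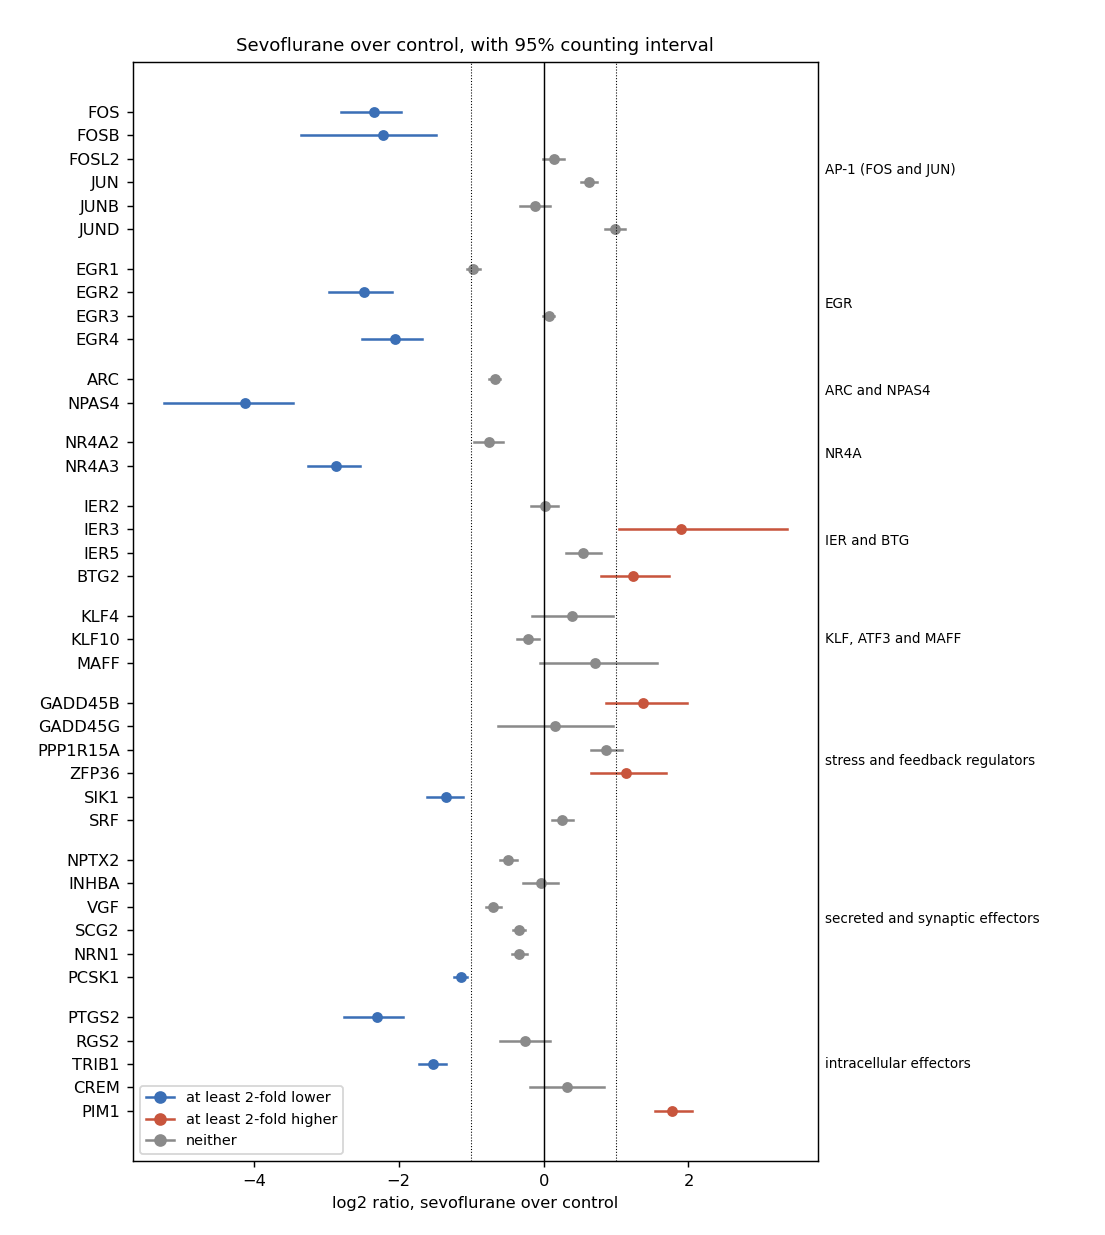
Log2 ratio of sevoflurane over control for the 38 members that passed the filter, with the exact 95% counting interval as a line and dotted lines at 2-fold. The 10 members called lower are blue, the 5 called higher are red and the other 23 are grey. The lowest is NPAS4 at -4.12 and the highest is IER3 at 1.89.

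Of the 6 delayed effectors that are secreted or act at synapses, 5 had an interval below equal expression, beside 28.1% of all genes tested. Only PCSK1 was called lower, beside 5.47% of all genes tested. PCSK1 encodes the convertase that cuts prohormones and neuropeptide precursors in dense core vesicles. It dropped to 1219 reads from 4563, or to 45.2% of the control (log2 ratio -1.14, interval -1.24 to -1.05). Under the scaling to neuron markers its ratio was -0.88, which is not 2-fold. VGF, a granin-like precursor of several peptides, had 2790 and 1020 reads (log2 ratio -0.69, interval -0.80 to -0.59). NPTX2, a pentraxin that gathers AMPA receptors on interneurons, had 1929 and 813 reads (-0.49, interval -0.61 to -0.37). SCG2, the precursor of secretoneurin, had 3456 and 1618 reads and a ratio of -0.34. NRN1, a membrane-anchored factor that promotes neurite and synapse growth, had 2484 and 1164 reads and a ratio of -0.33. Both had intervals below equal expression. INHBA, a subunit of activin A, had 384 and 221 reads and an interval of -0.28 to 0.20. All 6 ratios were negative, from -1.14 to -0.04. When the neuron markers were set to 0, SCG2 moved to -0.070, NRN1 to -0.069 and INHBA became 0.23.

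The intracellular delayed effectors went in both directions. PTGS2 encodes the inducible cyclooxygenase that makes prostaglandins and is expressed in excitatory cortical neurons. It fell from 487 to 57 reads, or to 19.8% of the control (log2 ratio -2.31, interval -2.76 to -1.94), which is close to FOS and FOSB. TRIB1, a pseudokinase that steers transcription factors to degradation, had 1399 and 287 reads and was called lower (log2 ratio -1.52, interval -1.71 to -1.34). PIM1, a serine/threonine kinase induced by cytokines through STAT factors, rose from 190 to 389 reads, or to 346% of the control (log2 ratio 1.78, interval 1.54 to 2.05). RGS2, which shortens G protein signaling, had 216 and 107 reads (interval -0.60 to 0.09). CREM, whose short ICER form represses CREB targets, had 78 and 58 reads (interval -0.18 to 0.84). The table has 1 row for CREM, so its isoforms could not be separated.

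Taken by class, 7 of 27 rapid members (25.9%) and 3 of 11 delayed members (27.3%) were called lower, beside the same 5.47% of all genes. The classes were thus not set apart by the share called lower. At least 4-fold lower were 6 of 27 rapid members (NPAS4, NR4A3, EGR2, FOS, FOSB and EGR4) and 1 of 11 delayed members (PTGS2), beside 1.22% of all genes. Called higher were 4 of 27 rapid members (14.8%) and 1 of 11 delayed members (9.09%), beside 7.56%. The median log2 ratio was 0.07 for the rapid class and -0.34 for the delayed class, beside -0.0048 over all genes tested. Of the rapid ratios, 12 were negative and 15 positive, and their median turned to -0.051 with a filter of 5 CPM. In the delayed class 9 of 11 ratios were negative. With the median of the neuron markers, itself -0.27, set to 0, the class medians were 0.34 (rapid) and -0.070 (delayed). No test of the difference between the classes was made.

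**Figure D3:**
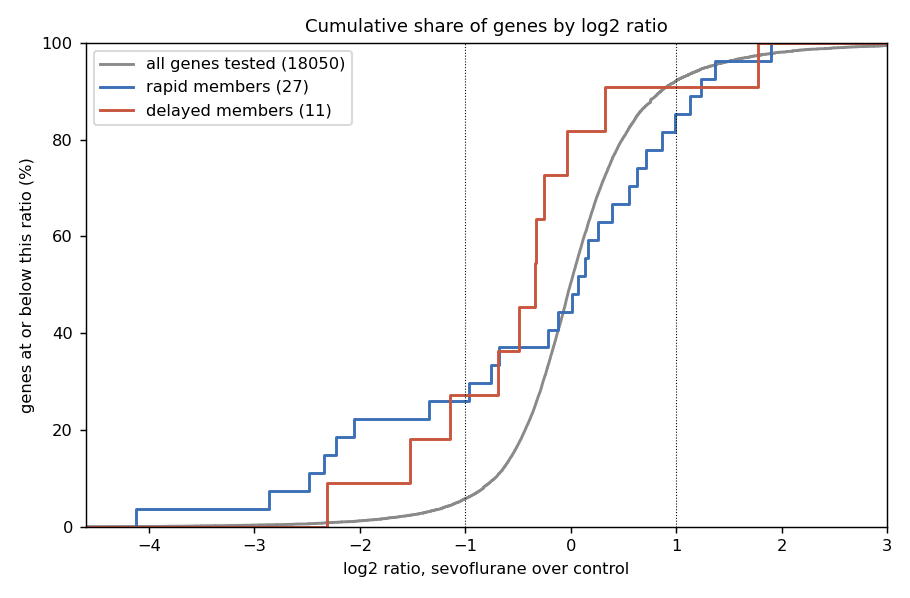
Share of genes, in percent, at or below each log2 ratio for the 18050 genes tested (grey), the 27 rapid members (blue) and the 11 delayed members (red), with dotted lines at 2-fold. The rapid curve starts far to the left at -4.12, crosses to the right of the grey curve near 0, crosses back past 2-fold, and reaches its top at IER3 (1.89), while the grey curve runs on. The delayed curve starts at PTGS2 (-2.31) and lies left of the grey curve past CREM at 0.32. The grey curve passes it before PIM1 (1.78), where the delayed curve reaches its top.

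The reads on the 39 members together made up 0.254% of the control library and 0.194% of the sevoflurane library. Levels were also summed by family. The EGR genes went from 514 to 366 CPM, ARC and NPAS4 from 371 to 219, NR4A2 and NR4A3 from 100.2 to 34.6, the secreted and synaptic effectors from 929 to 610, and the intracellular effectors from 141 to 90.4. The KLF, ATF3 and MAFF group went from 67.6 to 61.6 CPM. The AP-1 genes went the other way, from 257 to 325 CPM, with JUN and JUND holding the larger part of their reads. The IER and BTG genes went from 58.5 to 74.9 CPM and the stress and feedback regulators from 130 to 142. These sums weigh genes by their reads and are not an average over genes.

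The ratio of reads between relatives within a library needs no scaling, so it was given for the 22 pairs within the FOS and JUN, EGR and NR4A families. In 15 pairs this ratio differed at least 2-fold between the libraries with an exact 95% interval of the odds ratio that left out 1. For every 100 JUN reads there were 36.6 FOS reads in the control and 4.59 after sevoflurane, an odds ratio of 0.126 (interval 0.0922 to 0.168). FOS against JUND shifted further, to an odds ratio of 0.0977 (interval 0.0715 to 0.131). FOS and FOSB kept their proportion, with 462 and 458 FOS reads per 100 FOSB reads (odds ratio 0.991, interval 0.502 to 2.11). EGR2 and EGR4 also had an interval that held 1, from 0.487 to 1.13. EGR1 was 107 reads per 100 EGR3 reads in the control and 52.2 after sevoflurane, and NR4A2 went from 86.6 to 378 reads per 100 NR4A3 reads. The intervals are wide for pairs with FOSB, whose 12 sevoflurane reads set the limit. The pairs share genes and are not independent of each other. They rest on the same reads as the single-gene ratios above and add no separate evidence. No share over pairs of other genes was computed.

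**Figure D4:**
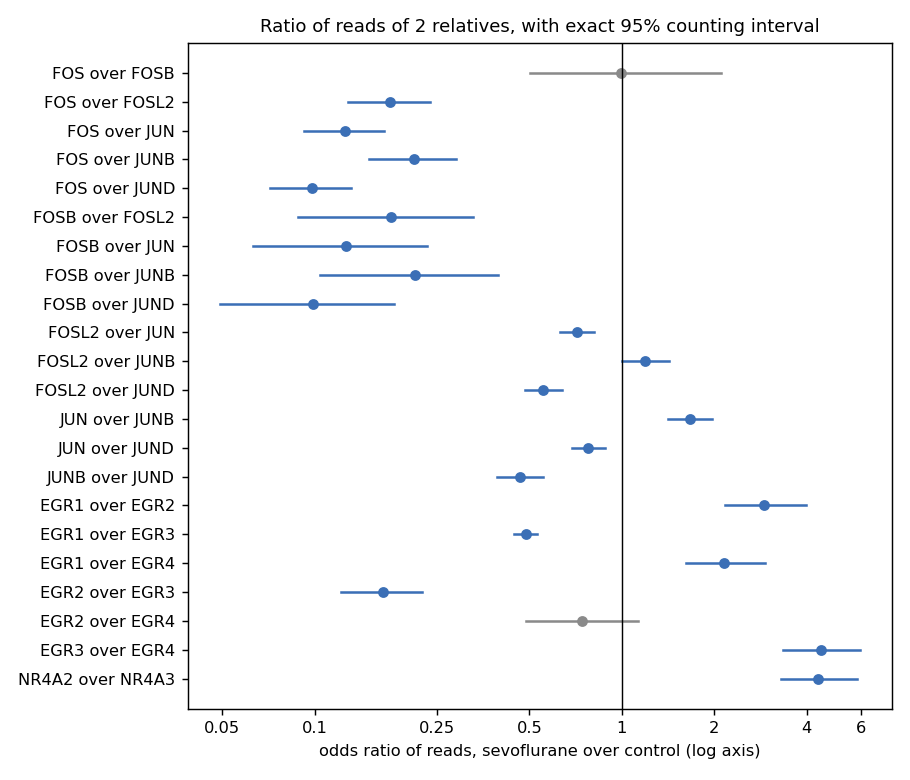
Odds ratio of the reads of 2 relatives, sevoflurane over control, for the 22 pairs within families, with its exact 95% counting interval, on a log axis. Pairs whose interval holds 1 are grey (FOS over FOSB and EGR2 over EGR4), and the others are blue. FOS and FOSB over any JUN gene lie between 0.0977 and 0.212.

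Next, 32 further activity-regulated genes outside the list were read in the same way. They were chosen with earlier results of these data known, and the paper itself reports DUSP4 as downregulated in these animals. Their share called lower is therefore not independent of the data. Of the 30 that passed the filter, 8 were called lower (26.7%) and 0 higher, beside 5.47% and 7.56% of all genes tested, and their median log2 ratio was -0.36. The lowest was DUSP4 (-3.91), a MAP kinase phosphatase, followed by PER2 (-2.48), BDNF (-2.26), DUSP5 (-2.01), DUSP6 (-1.84), GPR3 (-1.57), BHLHE40 (-1.17) and TIPARP (-1.12). With the neuron markers set to 0, 6 were called lower. BDNF, the neurotrophin, is a known target of NPAS4, and it went from 732 to 89 reads. GPR3, a receptor that raises cyclic AMP without a ligand, went from 281 to 55. Nearest to 0 were SGK1 (0.01), HOMER1 (-0.03) and MCL1 (-0.07). HOMER1 is given as a whole gene, so its short activity-induced form could not be separated. FOSL1 had 0 reads in both libraries.

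Transcripts of the upstream regulators were then compared. Of 28 that passed the filter, 0 were called lower and 0 higher, beside 5.47% and 7.56% of all genes. By the interval alone, 9 lay below equal expression and 16 above it, beside 28.1% and 28.4% of all genes, and their median log2 ratio was 0.26, with a range of -0.70 to 0.86. The lowest were NAB2 (-0.70) and NAB1 (-0.61), the corepressors that EGR proteins bind and, for NAB2, also induce. The highest was RPS6KA5 (0.86), a kinase of CREB and histone H3, which passed 2-fold (1.12) when the neuron markers were set to 0. CREB1 itself was at 0.39, its coactivators CRTC1 and CRTC2 were at 0.62 and 0.70, and ELK1 was at 0.65. Nearest to 0 were EP300 (0.03), MRTFB (0.05) and MEF2C (0.05), and MEF2C, an activity-regulated factor of excitatory neurons, had 27243 and 16702 reads. Transcript levels say nothing of the phosphorylation by which these proteins act.

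**Figure D5:**
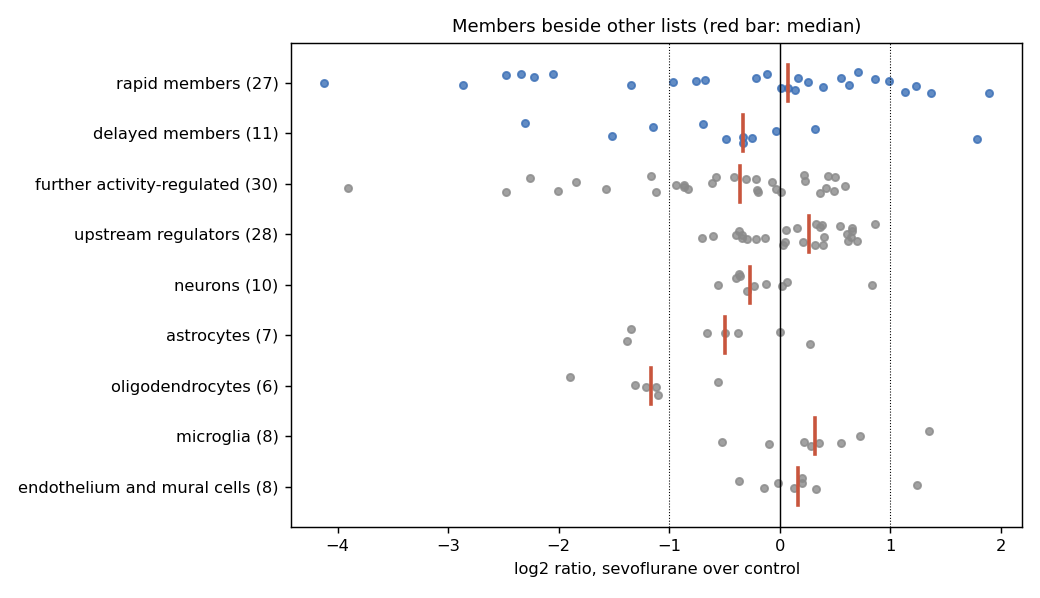
Log2 ratio of sevoflurane over control for single genes (points, spread at random in height) in the rapid and delayed members (blue) and in other lists (grey), with the number of genes that passed the filter in parentheses, red bars at the medians and dotted lines at 2-fold. The upstream regulators lie between -0.70 and 0.86, and both the members and the further activity-regulated genes reach past -2.

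The makeup of the tissue was read from marker lists beside these results. Of all genes tested, 5.47% were called lower and 7.56% higher. All 10 neuron markers were detected, 0 were called, and their median was -0.27, from -0.56 for NEFL to 0.83 for RBFOX3, with summed levels of 9164 and 7720 CPM. The excitatory list had a median of -0.08, but NEUROD6, one of its 5 markers, was called lower, with 1315 and 119 reads (-2.69). The inhibitory list had a median of -0.23 with 0 of 5 called. Among glia, 5 of 6 oligodendrocyte markers and 2 of 7 astrocyte markers were called lower, with summed levels of 4056 and 1994 CPM and of 6147 and 4264 CPM. The astrocyte list was mixed, with GFAP (-1.35) and AQP4 (-1.38) called lower, SLC1A3 (0.27) above equal expression and S100B at 0.003. The part of glia in the lower members was not tested.

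For the members called higher, markers of other cells were read as well, beside the 7.56% of all genes tested that were called higher. Microglia markers had a median of 0.32, with C1QB called higher (1.35) of 8, P2RY12 at -0.52 and summed levels of 227 and 246 CPM. Endothelial and mural markers had a median of 0.17, with ACTA2 called higher (1.24) of 8, FLT1 at -0.37 and summed levels of 475 and 523 CPM. Red blood cell genes had 3 of 4 called higher, from 24.8 to 80.8 CPM in sum, and HBA1, whose reads counting can split with its near-identical copy HBA2, had 0 control reads. Of 6 meninges and choroid plexus genes, 5 passed the filter, and COL1A1 (1.14) and TTR (3.61, on 2 and 31 reads) were called higher. COL1A2 was at 0.60, while DCN (0.06) and LUM (-0.11) had intervals that held equal expression. The sum went from 203 to 347 CPM, and FOLR1, with 0 and 3 reads, did not pass. The 5 higher members, IER3, PIM1, GADD45B, BTG2 and ZFP36, rested on 10 to 190 control reads and 26 to 389 sevoflurane reads, and the part of these cells in them was not tested.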

How the data were processed

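RNA of the prefrontal cortex was sequenced by the authors with Illumina protocols, and the table the authors deposited holds raw counts of reads by gene, with 1 column for each library. The submitters' processing notes name HISAT2 2.0.4. The counting tool, the genome build, the annotation and the handling of strand and shared reads are not given in the sources used here, so no coordinates are given, and no sequence was used.

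Groups came from the sample titles. TMM factors (edgeR 4.0.16, R 4.3.3) were 0.991 (control) and 1.01 (sevoflurane). Ratios, intervals and odds ratios were computed in Python 3.11.15 with numpy 2.4.6, pandas 2.3.3 and scipy 1.17.1, and plots with matplotlib 3.10.9. For scale, 3 reads equalled 0.179 CPM for the control and 0.302 CPM for sevoflurane, and no filter or call used that level. The procedure was tested on simulated counts that held counting error and no variation between animals. That check says nothing of differences between animals. The quasi-likelihood test of edgeR needs replicates and was not run.

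The members and lists were chosen with earlier results of these data known. All members are named, and of the further and upstream genes, those called and the 3 nearest to 0, with NAB1, NAB2, RPS6KA5, CREB1, CRTC1, CRTC2, ELK1, MEF2C, FOSL1 and the markers named for single values singled out after their values were seen. KLF2, HDAC4, SIK2 and TMSB4Y were not analysed here. Older symbols were used for CCN1, CCN2, MRTFA and MRTFB. Promoter motifs were not analysed here.

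Alternatives tried were 4 other scales (library totals, the upper quartile, the neuron markers and size factors from DESeq2 1.42.0), a prior count of 0.5, a filter of 1 read, a filter of 5 CPM, a control library thinned to the sevoflurane depth, a 99.9% interval, and thresholds of 1.5-fold and 4-fold.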

Additional observations from a re-analysis of the deposited data

How the results depend on the processing

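The count of members called lower stayed between 7 and 14, and that of rapid members between 6 and 10, under every alternative run. Shares over all genes are not given for these alternatives, save 1.22% lower at 4-fold. The counts alone therefore do not show how the members stood against all genes. A threshold of 1.5-fold called 8 members higher, and 4-fold called 0 higher and 1 delayed member lower. A stricter threshold cannot raise such counts, but it does not set their size. Setting the median of the neuron markers to 0 shifted all genes by 0.266 on the log2 scale, gave medians of 0.34 for the rapid and -0.070 for the delayed class, and called 9 members lower and 7 higher. The other scalings shifted all genes by at most 0.027. A mean of at least 5 CPM turned the rapid median to -0.051, since fewer genes were tested. Of 299 recomputed ratios of single members, 278 stayed within their counting interval, 20 left it and KLF10 turned to 0.050, these 21 all under the scaling to neuron markers. That scaling also turned JUNB (0.15), INHBA (0.23) and RGS2 (0.014), whose intervals held equal expression. No paired analysis was possible because only 1 library was at hand on each side, and no library could be left out. Depth limits genes with few reads, such as ATF3 with 2 and 4.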

Other observations

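Relatives of the members that are not on the list were also looked at, chosen after the members' values were seen. Of 24 such genes 21 passed the filter, with a median log2 ratio of -0.09, 3 called lower (14.3%) and 1 higher (4.76%), beside 5.47% and 7.56% of all genes tested. PIM2 (-0.03, interval -0.32 to 0.27) and PIM3 (-0.09, interval -0.37 to 0.18) had intervals that held equal expression, beside 1.78 for PIM1. GADD45A went against GADD45B, from 124 to 34 reads (log2 ratio -1.08, interval -1.70 to -0.55). ZFP36L1 (0.22) and ZFP36L2 (0.09) lay nearer to 0 than ZFP36, and BTG1 (0.17) nearer than BTG2. TRIB2, from 3781 to 1091 reads, fell with TRIB1 (log2 ratio -1.03, interval -1.13 to -0.94). The small MAF gene MAFG was called lower (-1.04) while MAFF was not called. KLF9, a target of glucocorticoid and thyroid hormone receptors, was the gene called higher, from 907 to 1166 reads (log2 ratio 1.12, interval 0.99 to 1.25).

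Among genes of the dense core vesicle, the granins CHGA and CHGB had log2 ratios of 0.64 and 0.53, each with an interval above equal expression, while SCG3 (-0.28) and the convertase PCSK2 (-0.65) lay below it, as SCG2, VGF and PCSK1 did. NPTX1 was at 0.48 and NPTX2 at -0.49, and the receptor NPTXR, with 36447 and 17604 reads, was at -0.29. These are values of 2 libraries, and no test of the differences between relatives was made.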
